A study of Mus musculus with 22 samples.

Results

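Among the RNA 5' ends counted in mouse primary motor cortex (M1), 16687 regions lay on nuclear chromosomes and were classed as unannotated in the deposited annotation, which gives each region a position and a strand on genome build mm9. They were taken by that class alone, without regard to their reads, and made up 14.9% of the 112366 features of the count table outside the spike-ins and the ribosomal repeat. The class holds features to which the deposited annotation gave none of its gene classes, such as 5'-UTR, CDS, intron or upstream. The sources used here do not say how the classes were drawn, and not every region had reads in these samples. The samples came from 6 wild type (WT) and 5 BERKO mice, the latter labelled ERb-/-, that is, without a working Esr2, the gene of estrogen receptor beta. All were male C57BL/6 mice aged 16 to 20 weeks. A right and a left biopsy of each mouse, taken by needle puncture, gave 22 biopsies, and 10 ng of RNA from each entered STRT sequencing, which tags the 5' end of a transcript during reverse transcription. The sources used here do not say how the ERb-/- allele was built, and BERKO mouse 1 was not analysed here.

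As background, RNA polymerase starts at many sites outside annotated gene starts. Promoters rich in CG dinucleotides often fire in both directions, giving a stable messenger RNA on one strand and a short-lived upstream antisense RNA on the other. Enhancers are also transcribed, and neurons use many alternative first exons far from the annotated gene. A 5' end can further arise from a recapped fragment, from unspliced or degraded RNA, or from a read placed wrongly among similar sequences, and a count of 5' ends does not tell these apart.

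The 3 kinds of evidence below are the location of the regions, their abundance by mouse, and their difference between genotypes. To show what the regions nearest to annotated promoters sit beside, the 250 bases upstream of the annotated start are given for 4 genes whose opposite strand carried a region described below. The sequences are RefSeq's, on build GRCm38.p6, matched by gene symbol, and run 5' to 3' on the strand of the gene. Capitals mark CG dinucleotides. Since the regions are placed on mm9, their positions within these sequences were not derived. Pgk1, a glycolytic kinase, is shown because of the region found in BERKO mice alone, Cpsf2, a subunit of the pre-mRNA cleavage complex, because its partner region was the most abundant of its kind, and Ppil3, a cyclophilin-like isomerase, and Adam15, a membrane metalloprotease, because their partner regions were among those with the smallest p between genotypes.
Pgk1 (chrX:106186850-106187099, plus strand): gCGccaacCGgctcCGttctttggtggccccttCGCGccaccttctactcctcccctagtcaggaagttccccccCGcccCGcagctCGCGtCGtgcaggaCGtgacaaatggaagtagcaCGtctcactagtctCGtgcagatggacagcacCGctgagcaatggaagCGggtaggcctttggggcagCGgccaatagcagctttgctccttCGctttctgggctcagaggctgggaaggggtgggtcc
Cpsf2 (chr12:101975724-101975973, plus strand): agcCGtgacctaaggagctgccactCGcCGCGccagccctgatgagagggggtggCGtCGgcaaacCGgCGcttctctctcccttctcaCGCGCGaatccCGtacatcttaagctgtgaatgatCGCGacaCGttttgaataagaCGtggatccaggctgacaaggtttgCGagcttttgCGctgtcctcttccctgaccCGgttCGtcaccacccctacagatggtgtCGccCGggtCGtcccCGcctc
Ppil3 (chr1:58445487-58445736, minus strand): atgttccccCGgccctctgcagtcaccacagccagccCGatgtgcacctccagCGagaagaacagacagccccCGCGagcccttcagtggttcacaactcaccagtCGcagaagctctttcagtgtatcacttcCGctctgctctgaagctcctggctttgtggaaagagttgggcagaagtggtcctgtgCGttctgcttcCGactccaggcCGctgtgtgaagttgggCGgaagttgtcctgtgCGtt
Adam15 (chr3:89350029-89350278, minus strand): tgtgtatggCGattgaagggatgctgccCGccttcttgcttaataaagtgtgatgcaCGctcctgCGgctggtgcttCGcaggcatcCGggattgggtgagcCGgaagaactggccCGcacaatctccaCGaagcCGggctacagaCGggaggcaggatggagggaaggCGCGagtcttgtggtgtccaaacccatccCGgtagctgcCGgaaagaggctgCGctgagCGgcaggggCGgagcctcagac
These 4 stretches held 17, 24, 12 and 18 CG dinucleotides, in the order given, and none held TATAAA, the core TATA box.

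Most unannotated regions were thinly covered. Of the 16687 regions, 7127 (42.7%) had 0 reads in all 22 biopsies, against 25.8% of all features, 48.4% of 17364 intron features and 7.27% of 11045 features in coding 5'-UTRs. The median was 6 reads over all biopsies, against 2 for intron features and 124 for coding 5'-UTR features. A small set carried the signal: 748 regions had 100 or more reads, 164 regions held 50% of the 572835 reads, and the 10 highest held 15.2%. Reads were found in all 22 biopsies for 214 regions. The strands were used about equally, with 49.0% of the regions on the plus strand. By chromosome, unannotated regions made up between 11.8% of the features on the X chromosome and 17.7% on chromosome 13, leaving aside the Y chromosome, where 1 of 17 features was unannotated.

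Many regions rested on a single biopsy. Of 7821 regions with at least 10 reads, 2562 (32.8%) had all of them in 1 biopsy. The right biopsy of WT mouse 3 alone supplied 1069 of these single-biopsy regions and the right biopsy of WT mouse 1 supplied 440, whereas each of the other biopsies supplied between 1 and 91. Those of WT mice 3 and 1 were also the deepest biopsies, with 1647246 and 2011941 endogenous reads, against 248354 to 1271773 in the others. The part of depth in these counts was not tested. Of intron features with at least 10 reads, 48.1% (3742) had all of them in 1 biopsy, with 1907 of these in the right biopsy of WT mouse 3. The figure was 1.12% for coding 5'-UTR features. The number of regions is therefore not a count of regions seen in every animal.

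Width separated the regions into unlike kinds. Regions of up to 45 bases were the majority, with 8952 regions, of which 60.0% had 0 reads. They held 20.3% of the reads, and 69 of them were abundant enough to test. Regions of over 300 bases numbered 596, of which 5.37% had 0 reads. They held 36.0% of the reads, and 282 could be tested. Among regions with a mean of at least 20 CPM (counts per 1000000 reads, on TMM-scaled library sizes), the coefficient of variation over the 11 mice had a median of 24.4% for 36 narrow regions and 42.9% for 107 wide ones. For all 6231 features above that level it was 30.4%. By the median, the narrow regions above that level thus varied less between mice, and the wide ones more, than all features above it. The narrow ones ran from 14.9 to 182% and the wide ones from 15.2 to 118%. Levels above the cutoff were not matched, and the description carries no test.

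By location, 6539 regions lay over 10 kb from any annotated feature of the deposited annotation (distal) and 6206 lay at 1 to 10 kb (intermediate). The distal regions held 38.2% of the reads and the intermediate ones 37.0%. Within 1 kb, 1021 regions had an annotated feature on their own strand and held 9.82% of the reads. A further 1370 regions pointed away from a promoter feature on the opposite strand (head to head) and held 7.96%, and 1551 lay near another opposite-strand feature and held 6.97%. Distances were measured between 5' ends in the deposited annotation, not to gene bodies, so a distal region can still lie within a gene's span on the other strand.

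Unannotated regions near a promoter of the opposite strand mostly pointed away from it. Promoter features are here those classed as 5'-UTR, upstream or noncoding first exon. A region with such features both behind and ahead was counted in both arrangements. The regions with such a feature behind them within 1 kb numbered 1414 (8.47% of all), and those with one ahead numbered 653 (3.91%). Of the former, 986 lay within 300 bases, with a median distance of 193 bases. Of the latter, 209 lay within 300 bases, with a median of 420. The count in the diverging arrangement was highest at 100 to 200 bases, with 455 regions, and was 21 at 900 to 1000 bases. From 400 bases on the converging arrangement was the more frequent one in each bin, with 97 regions against 84 at 400 to 500 bases. Intron features, which lie within genes by definition, showed the diverging arrangement within 1 kb in 1.58% and the converging one in 0.127%. Regions on the promoter's own strand were not compared, because 5' ends close to a gene's start on that strand have annotated classes of their own.

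**Figure D1:**
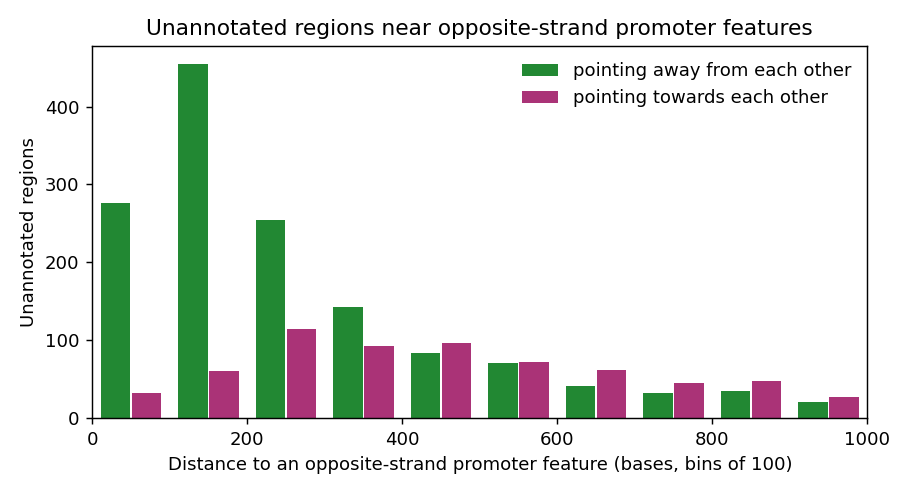
Number of unannotated regions (y axis) by distance in bases to a promoter feature of the opposite strand (x axis, bins of 100), for pairs pointing away from each other (green) and towards each other (purple). The diverging pairs peak at 455 regions between 100 and 200 bases, and the converging pairs at 115 between 200 and 300.

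The head to head regions could exceed the promoter feature beside them. Of 1366 such regions with a partner in the count table, 90 had at least 100 reads. In these pairs, which were picked for an abundant region, the region had a median of 74.9% of its partner's reads, and 41 regions had more reads than the partner. For 2 pairs the partner was listed at 0 reads. Promoters of partner genes were rich in CG. Over 1224 RefSeq promoters of 912 partner genes (of 1211, matched by symbol) the median was 18 CG dinucleotides in 250 bases, and 4.74% held TATAAA. All 32851 promoters had a median of 6 and 12.4% held TATAAA, and 7243 promoters of genes with a promoter feature of 100 or more reads had a median of 15 and 6.63%. Motifs were searched as CG and as TATAAA on both strands, and a match is a description of the letters only.

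The most abundant head to head region was TFE25846 (chr12:103213848-103214214, minus strand), 235 bases from a promoter feature of Cpsf2 that it pointed away from. Another Cpsf2 feature, classed as upstream, lay nearer, at 182 bases, and TFE25846 pointed towards that one. In WT mice it ranged from 102.3 to 220 CPM with a median of 113, and the BERKO mice had 103, 70.1, 66.4, 90.4 and 99.9 CPM. The highest BERKO value lay just inside the WT range and the other 4 lay below it, and the difference, -0.62 ± 0.21 on the log2 scale (SE), had an adjusted p of 0.259 in edgeR's quasi-likelihood test. TFE42043 (chr16:36875068-36875349, plus strand) lay 315 bases from Eaf2, an elongation factor partner, and had 98.1 ± 26.6 CPM in WT (SD, n = 6) and 80.9 ± 16.9 in BERKO mice (SD, n = 5). TFE1570 (chr1:58502325-58502572, plus strand) lay 37 bases from the 5'-UTR feature of Ppil3 and had 69.9 ± 24.1 CPM in WT and 26.7 ± 14.6 in BERKO mice. The Ppil3 feature itself had 51.2 ± 11.5 and 37.7 ± 14.2 CPM, so that the unannotated strand had the higher mean in WT mice and the lower one in BERKO mice. TFE68390, beside the noncoding C920021L13Rik, had 40.7 ± 14.3 and 44.6 ± 20.7 CPM. TFE78862, beside the phospholipid synthesis gene Ept1, had 48.2 ± 34.1 and 32.5 ± 7.79 CPM, with the Ept1 feature at 20.1 ± 3.43 and 12.9 ± 5.37.

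The share of nuclear reads that fell in unannotated regions did not pass the test between genotypes. It was 2.89% ± 0.402 in WT (SD, n = 6, range 2.57 to 3.63%) and 2.74% ± 0.0755 in BERKO mice (SD, n = 5, range 2.67 to 2.84%). The difference was -0.07 on the log2 scale, with a two-sided exact permutation p of 0.543 over 462 splits of the mice. Within the biopsies, the right biopsy of WT mouse 3 stood at 4.50% and the right biopsy of WT mouse 1 at 3.35%, and the other 20 lay between 2.33 and 3.14%. The same 2 biopsies had the highest share of reads in intron features, 4.05 and 2.50%, with the others between 1.65 and 2.09%. What sets these 2 biopsies apart was not tested. Without them the difference between genotypes turned to 0.090 on the log2 scale (p = 0.0541, the same exact permutation test).

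**Figure D2:**
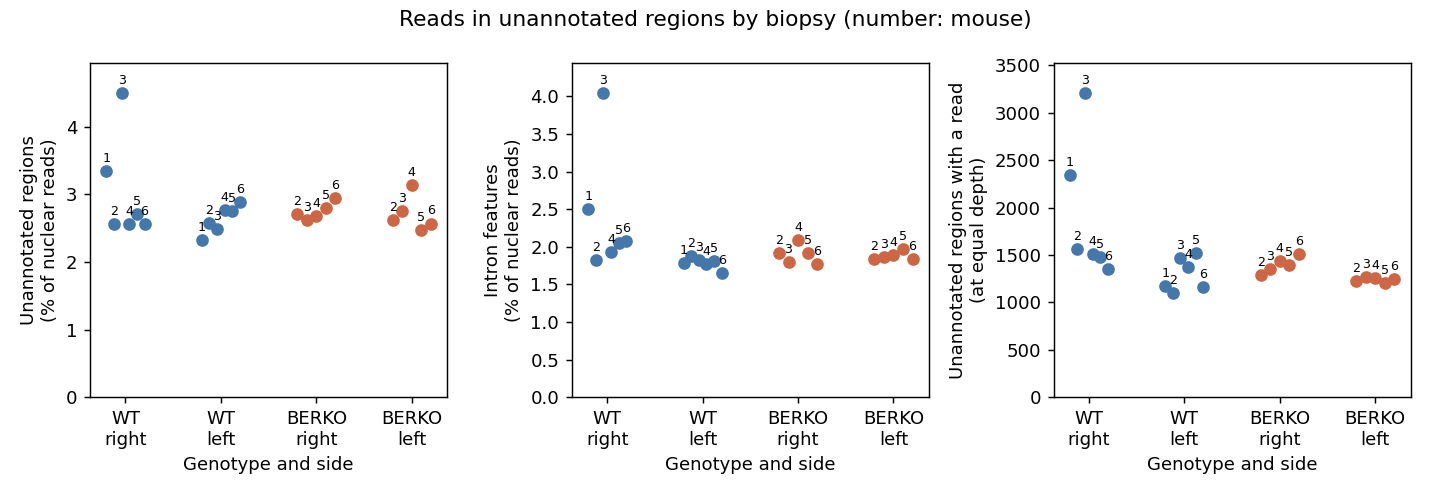
Percent of nuclear reads in unannotated regions (left panel), percent in intron features (middle panel) and unannotated regions with at least 1 read after thinning each biopsy to 248354 reads (right panel), for each biopsy, numbered by mouse, WT in blue and BERKO in orange. The right biopsies of WT mice 3 and 1 are the 2 highest in each panel.

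The number of regions with a read at equal depth was highest in the mice of the same 2 biopsies. With each mouse thinned to 1010647 reads, 3201 ± 912 regions had a read in WT (SD, n = 6, range 2385 to 4787) and 2428 ± 131 in BERKO mice (SD, n = 5, range 2299 to 2611). Unthinned, the mice had reads in 2307 to 5435 regions. The difference of -773 regions had an exact permutation p of 0.0649, 0.195 after adjustment over the 3 tests on all regions together. WT mice 3 and 1 had 4787 and 3781 regions. WT mice 2, 4 and 5, with 2654, 2707 and 2892, also lay above every BERKO mouse, and only WT mouse 6, with 2385, lay within the BERKO range. Leaving out WT mouse 2, 4 or 6 gave exact permutation p values of 0.0397, 0.0476 and 0.00794, before adjustment. Without the right biopsies of WT mice 1 and 3, a choice made after their values were seen, the difference was 18.2 regions (exact permutation p = 0.937). Without both biopsies of WT mouse 1 and the left biopsy of WT mouse 2, which had stood apart in an earlier look at all features, it was -592 regions (exact permutation p = 0.159).

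None of the 5 location classes passed the test of its share of nuclear reads after adjustment. Head to head regions had 0.242% ± 0.0765 in WT and 0.180% ± 0.0107 in BERKO mice, a difference of -0.37 on the log2 scale (exact permutation p = 0.0801, adjusted p = 0.400). For intermediate regions the shares were 1.05% ± 0.117 and 1.08% ± 0.0593, and for distal regions 1.12% ± 0.175 and 1.01% ± 0.0416. Without the right biopsies of WT mice 1 and 3, the head to head difference shrank to -0.12 and the intermediate one grew to 0.20, and each then had an adjusted p of 0.0433 by the exact permutation test. Those 2 biopsies were left out after their shares had been seen. Without both biopsies of WT mouse 1 and the left biopsy of WT mouse 2, the head to head difference was -0.27 (adjusted p = 0.198, exact permutation test). The left and right biopsies had shares of 2.67% ± 0.224 and 2.91% ± 0.576 (SD, n = 11 each), and the left share was the higher one in 6 of 11 mice (exact sign-flip p = 0.345). An exact permutation test of the difference between sides across genotypes gave p = 0.487.

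Beside these values, the share of mitochondrial reads was 1.38 to 1.97% in WT and 0.694 to 0.920% in BERKO mice. Microglial markers, 5 of 5 detected in every mouse, summed to 439 to 741 CPM in WT and 736 to 914 in BERKO mice. Endothelial markers, 3 of 4 detected in every mouse, summed to 84.3 to 185 CPM in WT and 158 to 255 in BERKO mice. Interneuron markers ran the other way, with 939 to 1218 CPM in WT and 776 to 1069 in BERKO mice. All these marker ranges overlapped between genotypes. The markers of cortical excitatory neurons, by which the tissue label was checked, had 5 of 7 members detected in every mouse, at 2182 to 4531 CPM in WT and 3729 to 5458 in BERKO mice. The striatal markers summed to 23.9 to 67.8 and 23.4 to 70.0 CPM. The part of these in any result on the regions was not tested, and in whole biopsies fewer cells of a type and less RNA per cell cannot be told apart. Depth ran from 1418084 to 2899377 endogenous reads per WT mouse and from 1010647 to 1695183 per BERKO mouse. Esr2 itself had 13 reads in all biopsies, too few to check the genotype labels. The column names carry a letter before the position number that differs between the genotypes, and within each genotype also between the sides. The letter can therefore be told apart neither from genotype nor from side.

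The 10 most abundant unannotated regions, ranked by 5' ends and not scaled by width, were led by TFE56569 (chr2:12933062-12933712, minus strand). It lay 1167 bases upstream, on the same strand, of the only annotated feature of C1ql3, a secreted C1q-like protein of synapses. The region had 24558 reads, whereas that C1ql3 feature had 44. In WT mice the region ranged from 767 to 2210.1 CPM with a median of 1229, and the BERKO mice had 696, 1948, 1099, 1437 and 1071 CPM. The groups overlapped, and the log2 difference was -0.08 ± 0.32 (adjusted p = 0.944). The second was TFE64850 (chr2:169457963-169459279, plus strand), 2415 bases upstream of an intron feature of Tshz2, a zinc finger transcription factor. It had 10991 reads, against 2030 over the 22 annotated features of Tshz2. WT mouse 1 had 39.6 CPM there, whereas the other 5 WT mice had 486 to 952 and the BERKO mice had 882, 308, 905, 579 and 739.

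Of the 10 regions, 4 were under 100 bases wide, and their coefficients of variation over the mice ran from 15.1 to 21.5%, against 21.1 to 69.9% for the 6 wider ones. TFE99259 (chr7:148364377-148364420, minus strand), 44 bases wide and 5675 bases upstream of the 5'-UTR feature of the ribonuclease inhibitor gene Rnh1, had a coefficient of variation of 15.1%. TFE106096 (48 bases), TFE49363 (42 bases) and TFE71377 (84 bases) had 17.1, 19.5 and 21.5%, and each lay over 10 kb from an annotated feature. At TFE99259 the WT mice ranged from 304 to 459 CPM with a median of 421, and the BERKO mice had 540.1, 515, 478, 476 and 488 CPM. All 5 BERKO values lay above all WT values there, but the difference of 0.30 ± 0.13 on the log2 scale had an adjusted p of 0.379. At TFE49363, WT mice had 273 ± 34.5 CPM and BERKO mice 354 ± 57.0. The sources used here do not say how reads that match several places were handled, so these regions may share reads with copies elsewhere.

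The other 4 were all wide. They lay near Syt5 and Shank1, except TFE28610, a distal region 74681 bases upstream of the 5'-UTR feature of Cplx2. TFE91788 (chr7:4498898-4499263, minus strand) lay 884 bases upstream of a feature of Syt5, a synaptotagmin, and had 6718 reads, against 1551 over the 8 annotated Syt5 features. It had 407 ± 93.9 CPM in WT and 293 ± 65.8 in BERKO mice (log2 difference -0.47 ± 0.17, adjusted p = 0.291). TFE94118 (chr7:51614784-51615351, plus strand) and TFE94115 (chr7:51613688-51614019, minus strand) lay past the 3' end features of Shank1, a postsynaptic scaffold, on either strand. The annotated feature nearest to TFE94118 was a CDS feature of 1700008O03Rik on the other strand, at 1401 bases, and the last Shank1 3'-UTR feature lay slightly farther away. TFE94115 lay 134 bases beyond the last 3'-UTR feature, which had 2.34 ± 3.79 CPM in WT and 5.34 ± 5.18 in BERKO mice. At TFE94118 the WT mice ranged from 156 to 610.2 CPM with a median of 323, and the BERKO mice had 447, 187, 524, 241 and 701. At TFE94115 they ranged from 65.4 to 598 with a median of 346, and the BERKO mice had 116, 140.3, 277, 197 and 712. Both spread widely within each genotype, with coefficients of variation of 46.3 and 69.9%, and BERKO mouse 6 was the highest mouse at both. The list of excitatory neuron and synapse loci had 83 unannotated regions within 50 kb of its 21 genes, and these were the most abundant of them.

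**Figure D3:**
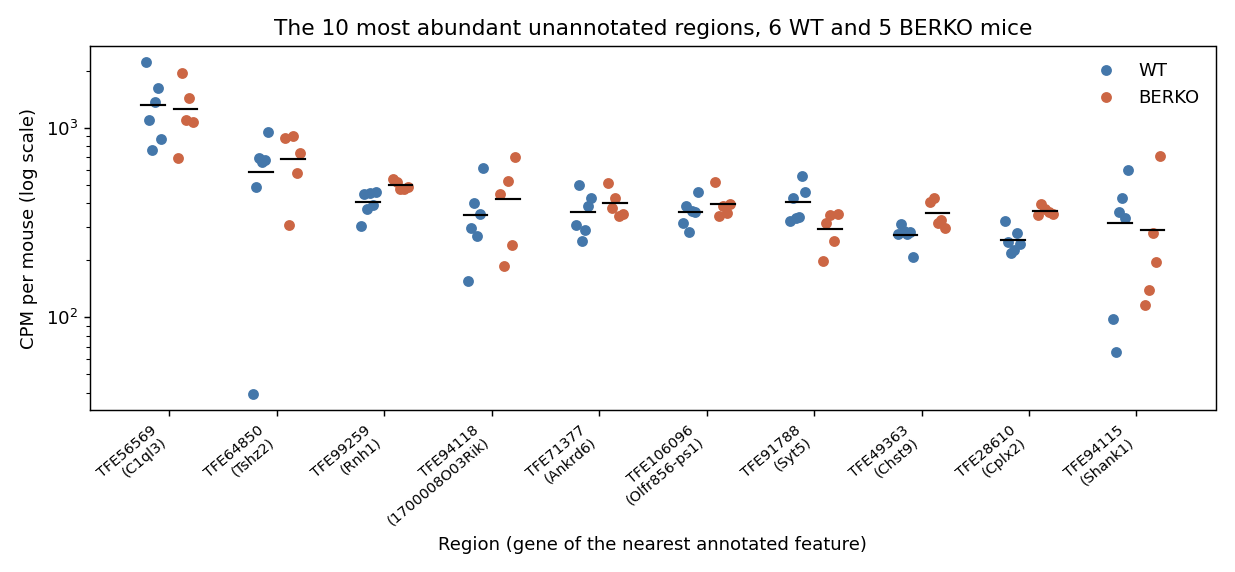
CPM per mouse (log axis) at the 10 unannotated regions with the highest mean, each named with the gene of the nearest annotated feature, for 6 WT mice (blue) and 5 BERKO mice (orange), with group means as black lines. WT mouse 1 is the low point at TFE64850, at 39.6 CPM, and the 2 regions past Shank1 spread over a wide range in both genotypes.

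Neighbouring regions on one strand often formed runs. With gaps of up to 10 kb and at least 3 regions, 970 runs held 4422 regions, while 9007 regions had no such neighbour. Each of the 5 runs with the most reads was led by 1 region that held between 70.7 and 99.4% of the run's reads. The run past Shank1 on the minus strand held 7838 reads in 4 regions. The run upstream of Fez1, a kinesin adaptor gene, held 5859 reads and had 323 ± 48.5 CPM in WT and 310.0 ± 67.9 in BERKO mice. The run upstream of Cplx2, which encodes the SNARE regulator complexin, lay 65424 bases from the gene's 5'-UTR feature and had 264 ± 42.5 CPM in WT and 381 ± 23.4 in BERKO mice (log2 difference 0.53 ± 0.14, adjusted p = 0.145). The run upstream of Camk2n1, an inhibitor of the kinase CaMKII, had 134 ± 43.5 and 251 ± 87.4 CPM (0.91 ± 0.27, adjusted p = 0.225). The run opposite Copg2, a coatomer subunit gene, had 181 ± 37.9 and 218 ± 59.9 CPM.

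Between genotypes, 2 unannotated regions passed the threshold. The test was edgeR's quasi-likelihood test on sums per mouse, fitted to all 13128 features with enough reads and adjusted over all of them, with a threshold of 0.05 on the adjusted p. Of the 16687 unannotated regions, 629 had enough reads, and these held 67.5% of the reads. Among them 1 was higher and 1 was lower in BERKO mice. These 2 are 0.318% of the regions tested; over all features tested, 15 passed, or 0.114%. The median log2 difference was 0.00 over the 629 regions and 0.00 over all features, and 318 of the 629 (50.6%) had a positive difference, against 49.7% of all features. An unadjusted p under 0.05 was reached by 32 regions with a higher and 24 with a lower level in BERKO mice, together 8.90% of those tested, against 11.6% of all features. The mice of the genotypes did not overlap at 11 of the 629 regions (1.75%), 5 higher and 6 lower, against 1.83% of all features. A large fold alone did not pass: 2 regions, named after their values were seen, had differences of -3.18 (TFE27227, adjusted p = 0.375) and -2.73 (TFE100352, adjusted p = 0.581). At the former WT mouse 1 had 200.5 CPM and the other mice at most 35.1, and at the latter 2 of the 6 WT mice and 3 of the 5 BERKO mice had 0.

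**Figure D4:**
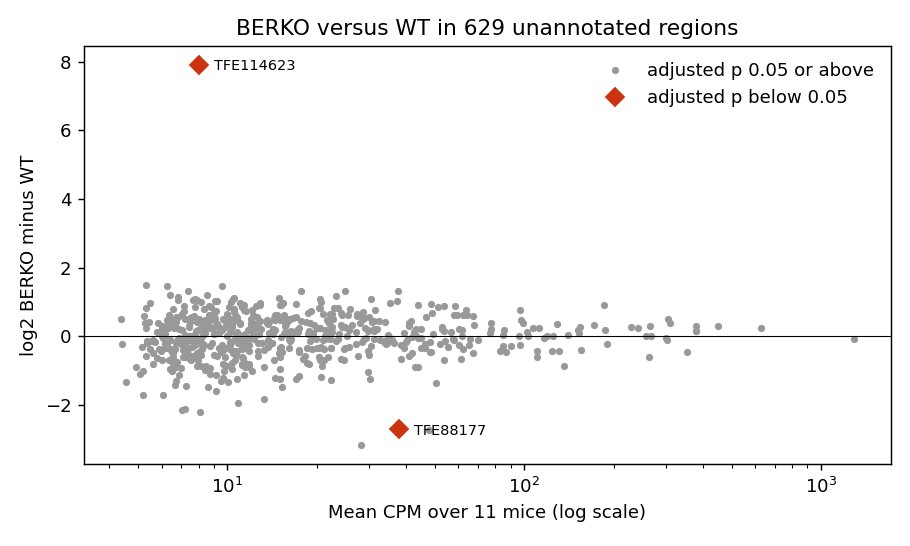
log2 difference between BERKO and WT (y axis) against mean CPM over 11 mice (x axis, log scale) for the 629 unannotated regions tested. The 2 red diamonds passed an adjusted p of 0.05, and the grey points did not. The height of TFE114623 depends on the small count that the fit adds to the WT zeros and is not a bound.

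The region that was higher was TFE114623 (chrX:103382067-103382293, minus strand), which points away from the 5'-UTR feature of Pgk1 at a distance of 257 bases. It had 0 reads in all 12 WT biopsies and reads in all 10 BERKO biopsies, 116 in total. By mouse, the BERKO animals had 35.8, 15.2, 13.3, 9.46 and 14.7 CPM, and each of the 6 WT mice had 0. The region thus came among those with enough reads to test through the BERKO mice alone. Pooled over the group, the BERKO level was 72.8-fold that of 3 reads over all WT reads, the limit that counting error sets on a count of 0. This fold is not a bound, because it leaves out the spread between mice. The adjusted p was 0.000868 in edgeR's quasi-likelihood test. The Pgk1 5'-UTR feature on the other strand had 739 ± 90.5 CPM in WT (SD, n = 6) and 718 ± 121 in BERKO mice (SD, n = 5), a log2 difference of -0.04 ± 0.13 (adjusted p = 0.929). The region ends before the position given for that feature. The biopsies carried between 1 and 37 reads each, with the most in the left biopsy of BERKO mouse 2. DESeq2 and a stricter filter on low counts gave no adjusted p for TFE114623. Of all unannotated regions, 4 had reads in every BERKO mouse and in no WT mouse, with TFE114623 the most covered, and 3 had the reverse pattern. Over all 112366 features, the same patterns were found at 18 (0.016%) and 28 (0.0249%). The Pgk1 promoter is also in common use in vectors to drive selection genes. The sources used here do not say which sequences the ERb-/- allele of these mice carries.

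The region that was lower was TFE88177 (chr6:79768079-79768344, plus strand). It lay 200886 bases upstream, on the same strand, of the 5'-UTR feature of Lrrtm4, a leucine-rich adhesion protein of excitatory synapses, which was the nearest annotated feature. In WT mice it ranged from 34.1 to 92.6 CPM with a median of 61.2, and the BERKO mice had 7.78, 7.23, 21.1, 8.41 and 2.56. All BERKO values lay below all WT values. The log2 difference was -2.71 ± 0.41 (SE), with an adjusted p of 0.00298. The Lrrtm4 5'-UTR feature had 8.34 ± 3.59 CPM in WT and 6.59 ± 5.20 in BERKO mice, a log2 difference of -0.33 ± 0.65 (adjusted p = 0.881), so that in WT mice the distal region had more 5' ends than the annotated start. Reads at TFE88177 were found in 21 of the 22 biopsies. With limma-voom its adjusted p was 0.0622.

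**Figure D5:**
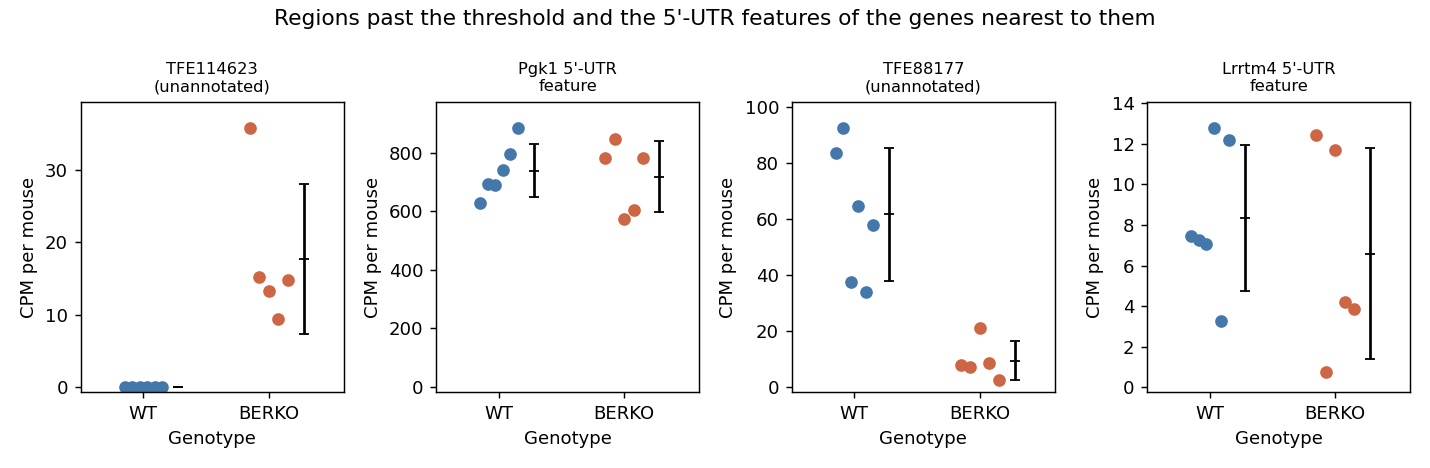
CPM per mouse for TFE114623 and TFE88177 and for the 5'-UTR features of Pgk1 and Lrrtm4, in 6 WT (blue) and 5 BERKO mice (orange), with the mean and SD in black. TFE114623 is at 0 in every WT mouse, TFE88177 does not overlap between genotypes, and the 5'-UTR features overlap.

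The 8 regions next in order of p did not pass. TFE38813 (chr15:95358907-95359329, minus strand), 505 bases upstream of the 5'-UTR feature of Nell2, a secreted neuronal protein, came closest. It ranged from 130.2 to 279 CPM in WT mice with a median of 150.1, and the BERKO mice had 87.2, 113, 91.5, 90.4 and 86.5. The genotypes did not overlap, and the log2 difference was -0.88 ± 0.20 (adjusted p = 0.0904). The Nell2 5'-UTR feature had 39.0 ± 8.02 CPM in WT and 23.6 ± 8.44 in BERKO mice (adjusted p = 0.346). TFE28610 (chr13:54397481-54398219, plus strand), the leading region of the Cplx2 run, had 256 ± 38.3 CPM in WT and 365 ± 19.4 in BERKO mice, again without overlap (0.51 ± 0.13, adjusted p = 0.156). The Cplx2 5'-UTR feature had 1849 ± 311 and 2212 ± 229 CPM (adjusted p = 0.414).

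TFE1570 beside Ppil3 had a log2 difference of -1.36 ± 0.35 (adjusted p = 0.156) and fell to 5.26 CPM in BERKO mouse 5. TFE67787 (chr3:89153960-89154153, plus strand), 71 bases from the 5'-UTR feature of Adam15, had 12.7 ± 4.96 CPM in WT and 2.65 ± 1.67 in BERKO mice (-2.20 ± 0.61, adjusted p = 0.187), while the Adam15 feature had 1.80 ± 2.38 and 2.66 ± 3.55 CPM. TFE73467, 39 bases wide and distal to the mitochondrial protease gene Oma1, had 312 ± 51.0 and 206 ± 41.2 CPM (adjusted p = 0.180). TFE69866, distal to Larp7, an RNA-binding protein gene, had 55.6 ± 11.4 and 29.6 ± 4.08 CPM (adjusted p = 0.183), and TFE28055, distal to the deacylase gene Sirt5, had 30.5 ± 10.0 and 12.7 ± 6.02 (adjusted p = 0.193). TFE98443, beyond the 3' end feature of the steroid dehydrogenase gene Hsd3b7, was the other one with a higher mean in BERKO mice, 48.2 ± 10.7 against 82.0 ± 18.7 CPM (adjusted p = 0.193). DESeq2 passed 5 of these 8 regions, TFE38813, TFE1570, TFE28610, TFE73467 and TFE69866, with adjusted p from 0.0110 to 0.0488.

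On each side alone the counts were smaller. On the right side, 1 of 381 regions tested passed, TFE88177, against 0.0733% of all features, with 71.5 ± 32.1 CPM in WT and 10.7 ± 4.87 in BERKO right biopsies (edgeR quasi-likelihood adjusted p = 0.00913). With the mouse number as a replicate block this adjusted p was 0.106. On the left side 0 of 261 regions tested passed, against 0% of all features, while 13 with a higher and 7 with a lower level had an unadjusted p under 0.05, together 7.66%, against 6.74% of all features. TFE88177 there had 51.2 ± 34.2 and 10.4 ± 16.4 CPM. The left side regions with the smallest p were TFE76283 at Camk2n1 (102 ± 39.5 and 305 ± 183 CPM), TFE28055 (33.6 ± 14.0 and 8.41 ± 5.57) and TFE1570 (92.8 ± 35.7 and 32.3 ± 24.3). Their adjusted p in edgeR's quasi-likelihood test was 0.499 or higher. On the right, TFE38813 and TFE6141, beyond the 3' end feature of the immunoglobulin family gene Igsf8, came next, and TFE6141 had 32.5 ± 12.6 CPM in WT and 76.5 ± 19.4 in BERKO biopsies.

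Between the sides of the cortex, with the mouse as a block, 0 of 270 unannotated regions tested passed in edgeR's quasi-likelihood test, against 0% of all features. An unadjusted p under 0.05 was reached by 11 regions with a higher level on the left and 11 with a higher level on the right, together 8.15%, against 5.3% of all features. The smallest p was at TFE25481 (chr12:89961264-89961634, plus strand), 72319 bases upstream of a feature of Nrxn3, a presynaptic adhesion gene. It was lower on the left in all 11 mice, at 56.0 ± 31.5 CPM on the right and 18.9 ± 10.2 on the left (log2 difference -1.59 ± 0.33, adjusted p = 0.238). TFE105769, upstream of Msantd4, was lower on the left in 9 of 11 mice, at 56.3 ± 16.4 and 28.7 ± 20.6 CPM, and TFE99259 near Rnh1 was higher on the left in 10 of 11, at 430 ± 93.0 and 534 ± 74.1. The genotype effect differed between the sides at 0 of 485 regions, against 0% of all features, with 5 positive and 6 negative differences at an unadjusted p under 0.05, together 2.27%, against 2.69% of all features. The smallest p values there were at TFE36431, TFE30956 and TFE66992, all distal. TFE36431 lay 87720 bases from a feature of the potassium channel gene Kcnq3, and TFE66992 lay 48440 bases from one of the ribosome export gene Nmd3.

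Regions within 50 kb of chosen gene lists were few and none passed. Around 7 genes with annotated features called as differing in an earlier look at these data lay 9 regions. Of these 9 regions, 0 were abundant enough to test. The most abundant were TFE17818 near Cdk5r1, an activator of the kinase Cdk5, at 2.43 ± 3.00 CPM in WT and 1.43 ± 1.35 in BERKO mice, and TFE108364 near Lingo1, a neuronal membrane protein gene, at 0 in all 6 WT mice and 3.23 ± 3.85 CPM in BERKO mice. Around 17 activity-induced genes lay 49 regions with 2 tested, both within 50 kb of Homer1, a postsynaptic scaffold gene. TFE29904 had a log2 difference of 0.89 ± 0.58 and TFE29908 one of -0.41 ± 0.67. The annotated feature nearest to TFE29908 was a CDS feature of Jmy on the other strand, at 5126 bases. Of 20 long noncoding and imprinted genes, 17 have a feature in the files, and 15 of these had regions within reach, 72 in all with 3 tested, all with positive differences of 0.19 to 0.51. TFE1163 beside the noncoding Pantr1 had 24.1 ± 10.4 CPM in WT and 33.9 ± 17.0 in BERKO mice, and TFE65054 beside the imprinted Gnas had 8.89 ± 6.03 and 11.3 ± 9.64. Around the synapse genes 7 regions were tested, with a median log2 difference of -0.11, 2 positive and 5 negative. They included regions by the glutamate receptor genes Grin1 (-0.09 ± 0.31) and Grin2b (-0.33 ± 0.30 and 0.55 ± 0.34). Around 17 glial genes lay 21 regions with 1 tested, TFE112234 past the 3' end feature of the myelin gene Mobp, at 50.5 ± 24.7 and 45.4 ± 24.2 CPM.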

How the data were processed

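Whole-number read counts per feature, not normalised, were deposited by the authors together with each feature's position, strand and class. Per the submitters' processing notes, Bowtie and TopHat2 2.0.12 were used with genome build mm9; the rules for drawing features and assigning reads to strands were not given in the sources used here. Counts are reads after PCR, so floors cover counting error alone. The 64 count columns were assigned to biopsies through the side, genotype and mouse number that their names carry; no label says in words that this digit is the mouse. Lanes were summed (chi-square per feature 0.842 to 1.01 between lanes, at least 4.98 between biopsies of a group); BERKO left 5 has 1 lane.

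Reads of both biopsies were added up per mouse. All endogenous features were fitted with edgeR 4.0.16 (TMM, filterByExpr, robust quasi-likelihood test, Benjamini-Hochberg adjustment). Sides were compared over 22 biopsies with the mouse as block, since both come from one animal. Shares and detection were tested by exact permutation over 462 splits of the mice, or 2048 sign flips. In counts simulated with the design of the genotype comparison, 12047 features had enough reads to test. Of the planted changes among them, 60.5% of the 4-fold and 20.5% of the 2-fold ones were recovered. Planted changes lost to the filter on low counts were left out of these percentages. Alternatives were DESeq2 1.42.0, limma-voom (limma 3.58.1), other scalings and filters, and leaving out libraries. Named regions are the 10 most abundant, 10 by genotype p, 3 by p for each other comparison, the 5 most abundant head to head regions, the 5 runs with the most reads and 2 for each list. The members and lists were chosen with earlier results of these data known. WT and BERKO mice of one number correlated by -0.05 to 0.04 in their deviations. Right and left biopsies of one mouse correlated by -0.17 to 0.39, and most of these values were also small. The measure therefore cannot tell whether mice of one number share more than a number.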

Additional observations from a re-analysis of the deposited data

Results flagged for a closer look

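Among 45 groups of mice or biopsies examined, 5 held a value far from the rest of its group by Dixon's criterion, and chance flags about 1 in 20 groups. At TFE49363, WT mouse 6 had 207.8 CPM, below the 275 to 310 CPM of the other WT mice. At TFE94115, past the 3' end of Shank1, BERKO mouse 6 had 712 CPM, above the 116 to 277 CPM of the other BERKO mice. At TFE114623, opposite Pgk1, BERKO mouse 2 had 35.8 CPM, above the 9.46 to 15.2 CPM of the other BERKO mice. At TFE38813, near Nell2, WT mouse 1 had 279 CPM, above the 130.2 to 176 CPM of the other WT mice, and BERKO mouse 3 had 113 CPM, above the 86.5 to 91.5 CPM of the other BERKO mice.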

How the results depend on the processing

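The count of 2 regions that passed between genotypes was 8 with DESeq2 (2 higher, 6 lower), 19 with no filter on low counts (3 higher, 16 lower), 1 with a stricter filter and 1 with limma-voom. DESeq2 gave an adjusted p for 289 unannotated regions. Of the 19 regions without the filter, 13 were not tested with it and 12 of those were lower in BERKO mice; 6 had at least 90% of their reads in 1 biopsy, 4 of them in the right biopsy of WT mouse 3. With the mouse number as a replicate block the count was 3, and with spike-in scaling, which moved the median of all features by 0.26 on the log2 scale, it was 3 (2 higher, 1 lower). Leaving out each mouse gave 2 to 3, and leaving out the right biopsies of WT mice 1 and 3, an alternative chosen after seeing the data, gave 2. TFE114623 passed in 18 of 18 alternatives that gave it a value and TFE88177 in 19 of 20. These alternatives refit the same counts, with TFE114623 at 0 in every WT mouse each time, so they are not separate evidence. DESeq2 and the stricter filter gave no adjusted p for TFE114623, and the 2 higher regions with DESeq2 were TFE28610 and TFE76283.

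On the right side alone the count of 1 was 0 with the replicate block and 1 to 2 when each mouse was left out, with 2 without BERKO mouse 5. Between the sides the count of 0 was 1 with no filter on low counts.

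The difference in share of -0.07 (log2) was 0.20 against spike-in reads, 0.040 on the left side alone, -0.05 with mouse numbers 2 to 6 as a replicate block and 0.090 without the right biopsies of WT mice 1 and 3; without both biopsies of WT mouse 1 and the left biopsy of WT mouse 2, the planned exclusion, it was -0.047, and that of regions detected was -592; leaving out each mouse gave -0.099 to 0.00068, the latter without WT mouse 3. Without those 2 biopsies the differences by location were -0.12 for head to head, 0.064 for other opposite strand, 0.20 for intermediate and 0.010 for distal regions, with adjusted p of 0.0433, 0.805, 0.0433 and 0.805 (exact permutation), and the difference in regions detected was 18.2. Leaving out each mouse moved that difference from -936 to -456 regions, with p from 0.00794 to 0.148 (exact permutation), the lowest without WT mouse 6. The cause of these shifts was not tested. Regions under the filter, 16058 of 16687, were too thinly covered to compare.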
